A study of Homo sapiens with 9 samples.

Results

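The comparison of a transfected control RNA with the transfection lipid alone was examined in ZR-75-1, a breast cancer cell line that expresses the estrogen receptor. It rests on 6 of the 9 arrays of the series: 3 of cells given 50 nM of a non-specific negative control RNA and 3 of cells given the lipid reagent without RNA (mock), chosen by their labels alone. The other 3 arrays, of cells that received a miR-150-5p mimic at 50 nM, enter the fit and are quoted where the question is what both RNAs share. All 9 samples received Lipofectamine RNAiMAX, had their medium replaced at 24 h and gave RNA at 48 h, so no group shows untreated cells. The sources describe triplicates but not whether these were separate cultures or days, and the p-values then measure only the spread between these samples, which may be technical.

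Double-stranded RNA that enters a cell can meet several receptors. Toll-like receptors read RNA in endosomes, RIG-I (RIGI) and MDA5 (IFIH1) read it in the cytoplasm and signal through MAVS to IRF3 and interferon, and PKR (EIF2AK2) halts translation when RNA activates it. Interferon then induces a large set of antiviral genes, among them the IFIT family, ISG15 and MX1. A short duplex also competes for the silencing machinery that microRNAs use. A negative control RNA is used because whatever it does through these routes is meant to be shared with the active mimic.

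No gene passed the threshold in this comparison, which asks what RNA of no intended target adds to lipid alone. Of 14884 genes tested with limma, 0 were higher and 0 were lower at an adjusted p under 0.05, a background of 0% in each direction, and the lowest adjusted p was 0.976. At an unadjusted p under 0.05 there were 622 genes (4.18%), 319 higher (2.14%) and 303 lower (2.04%). In a histogram of p-values with 20 equal bins the mean is 744 genes a bin, and the lowest bin held these 622. The arrays of the 2 groups did not overlap for 1205 genes (8.1%), with 710 genes higher (4.77%) and 495 lower (3.33%) in every negative control array. In random order, 3 arrays separate completely from 3 others with a probability of 0.1, both directions counted.

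The size of the differences was small and its error was narrow for most genes. Values are log2 intensities from the deposited table, and a difference of 1 is a 2-fold change. The median absolute difference was 0.072 and the median standard error 0.10. No gene differed by 2-fold or more. A difference of 1.5-fold or more was measured for 13 genes, 1 of them among the 7442 genes brighter than the median of 5.44; in the same arrays 85 bright genes differed that far between mimic and negative control and 43 between mimic and mock. The unadjusted 95% interval of the difference lay within 2-fold in either direction for 14826 genes (99.6%) and within 1.5-fold for 13924 (93.6%). Positive differences made up 52.8% of all genes and 62.6% of the brighter ones, whose median was 0.03.

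**Figure D1:**
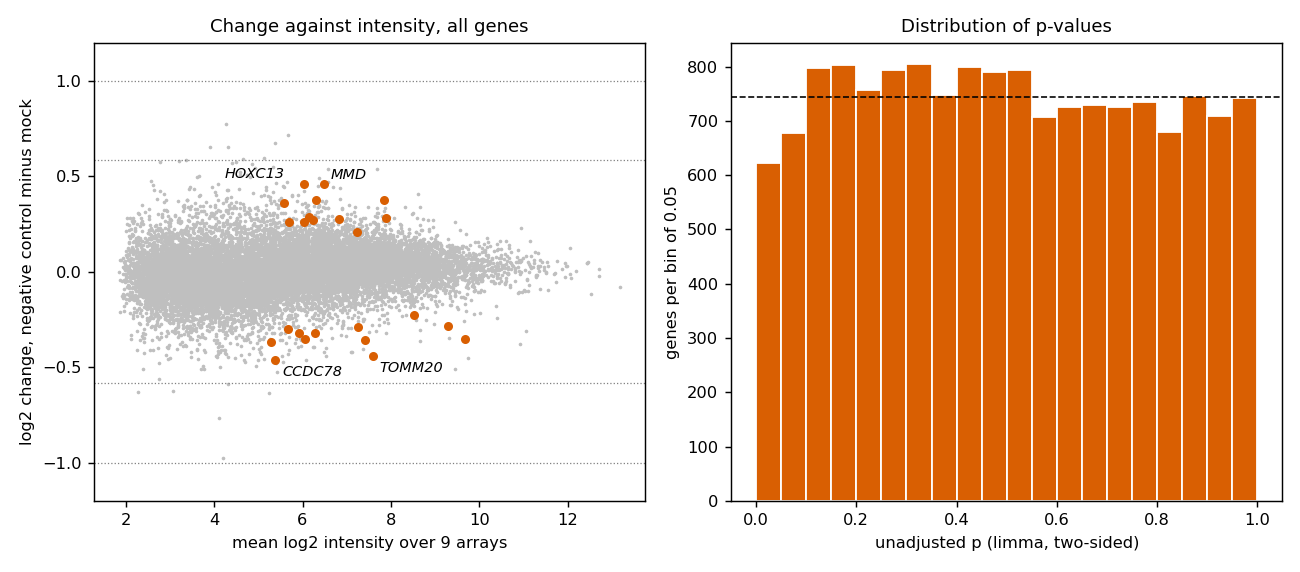
Left, log2 change (negative control minus mock) of 14884 genes against their mean log2 intensity over 9 arrays, with the 24 genes of lowest p that met the naming rule in orange and dotted lines at 1.5-fold and 2-fold. Right, number of genes per bin of unadjusted limma p, with a dashed line at the mean of 744 genes a bin; the lowest bin, with 622 genes, lies under that line.

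One mock library stood apart from its group. Mock replicate 3 correlated best with negative control replicate 3 (r = 0.9957 across genes) and on average better with the negative control arrays (0.9953) than with the other mock arrays (0.9935). Without it, 1267 genes had an unadjusted p under 0.05 (8.51%, limma) and still 0 passed, with a lowest adjusted p of 0.139. Without mock replicate 1 or 2 there were 452 and 479 such genes. Mock replicate 3 was singled out for its likeness to the negative control arrays, so its omission tends to raise that number by itself. STRADB, a pseudokinase partner of the kinase LKB1, shows the place of this library and is named after its values were seen: it read 5.00, 5.01 and 6.10 in mock and 6.04, 6.12 and 6.09 in negative control. It is the bright gene with a difference over 1.5-fold (0.72 ± 0.25 SE), and its mock replicate 3 lies among the negative control arrays. Mimic replicate 2, which enters the fit, correlated best with negative control replicate 2 (0.9950). On average it correlated at 0.9941 with the mock arrays and at 0.9940 with its own group. Array medians over all probesets were between 4.22 and 4.27. Of the epithelial markers, KRT18 read 12.11, 12.13 and 12.08 and GATA3 read 9.95, 10.22 and 9.84 in mock, above the median gene, as did FOXA1 and ESR1, while KRT5, a basal keratin, read 2.67 in every mock and negative control array. Of the 5 measured basal markers, 3 were brighter than the median gene.

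The listed sensors did not pass the test in either direction. Of 22 listed genes, called RNA sensors here, 13 were measured, which here means that a probeset in the table carries the gene's name. Among the 13 are the DNA receptors TLR9 and AIM2, and NOD2, a receptor of bacterial cell wall fragments. These differed by -0.05, 0.03 and 0.10 and count in the values of the list. Of the 13, 8 had a positive difference and the median was 0.07, beside 0.01 over all genes. The mean over the list, relative to mock, was 0.01, -0.02 and 0.01 on the mock arrays and 0.06, 0.05 and 0.03 on the negative control arrays. At an unadjusted p under 0.05 none was higher and 1 was lower, ZBP1. RIGI read 7.5, 7.39 and 7.5 in mock and 7.33, 7.37 and 7.27 in negative control, so that every negative control array was lower, with a mean difference of -0.14 and a 95% interval from -0.45 to 0.16. IFIH1 went the other way, with 6.37, 6.40 and 6.40 in mock and 6.50, 6.48 and 6.64 in negative control (difference 0.15 ± 0.08 SE). Neither difference passed (unadjusted p = 0.32 and 0.08, adjusted p = 0.976 or above, limma). PKR (EIF2AK2) read 8.16, 8.37 and 8.52 in mock and 8.36, 8.45 and 8.46 in negative control, values that overlap.

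The dimmer sensors were less even. TLR3, the endosomal receptor for double-stranded RNA, read 4.34, 3.85 and 4.65 in mock and 4.60, 4.56 and 4.61 in negative control, where the mock arrays spread on both sides of the others and the interval ran from -0.10 to 0.72. ZBP1, a receptor of Z-form nucleic acid, was below mock in all negative control arrays (4.54, 4.59 and 4.45 against 4.27, 4.07 and 4.25) and in all mimic arrays (4.25, 4.18 and 3.97), with a difference of -0.33 ± 0.09 SE for the negative control. TLR7, a receptor of single-stranded RNA, read 2.85, 2.70 and 2.67 in mock and 3.43, 2.90 and 2.85 in negative control, with 1 high array. DHX58 read 3.81, 3.91 and 3.91 in mock and 3.80, 4.26 and 3.77 in negative control. All 4 were dimmer than the median gene, where a value cannot be separated from background in this table. The 95% interval lay within 1.5-fold for 11 of the 13 sensors, all but TLR3 and TLR7. Only 4 of the 13 were brighter than the median gene, and for the dimmer ones a narrow interval does not bound a change.

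None of the adaptors downstream passed, and the error of each was narrow. Of 29 adaptors and interferon signalling genes 20 were measured, 13 with a positive difference, and the intervals of all 20 lay within 1.5-fold. MAVS, the mitochondrial adaptor of RIG-I, read 8.17, 8.24 and 8.22 in mock and 8.20, 8.14 and 8.23 in negative control. The kinase TBK1 read 8.21, 8.0 and 8.42 in mock and 8.25, 8.11 and 8.25 in negative control, and its substrate IRF3 read 6.70, 6.68 and 6.72 in mock and 6.71, 6.70 and 6.70 in negative control. TICAM1, the adaptor of TLR3, differed by -0.02 ± 0.16 SE and IRF7, itself an interferon-induced factor, by 0.02 ± 0.08 SE. MYD88, the adaptor of most Toll-like receptors, was the member with the lowest p (unadjusted 0.029): it read 5.91, 5.93 and 5.91 in mock and 6.19, 6.07 and 6.06 in negative control, with no overlap. Non-overlapping and higher were also RNF135, a ubiquitin ligase of the RIG-I pathway (0.20 ± 0.12 SE), and IRF2 (0.08 ± 0.08 SE, named after its values were seen). That makes 3 of 20 genes, against 4.77% of all genes.

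**Figure D2:**
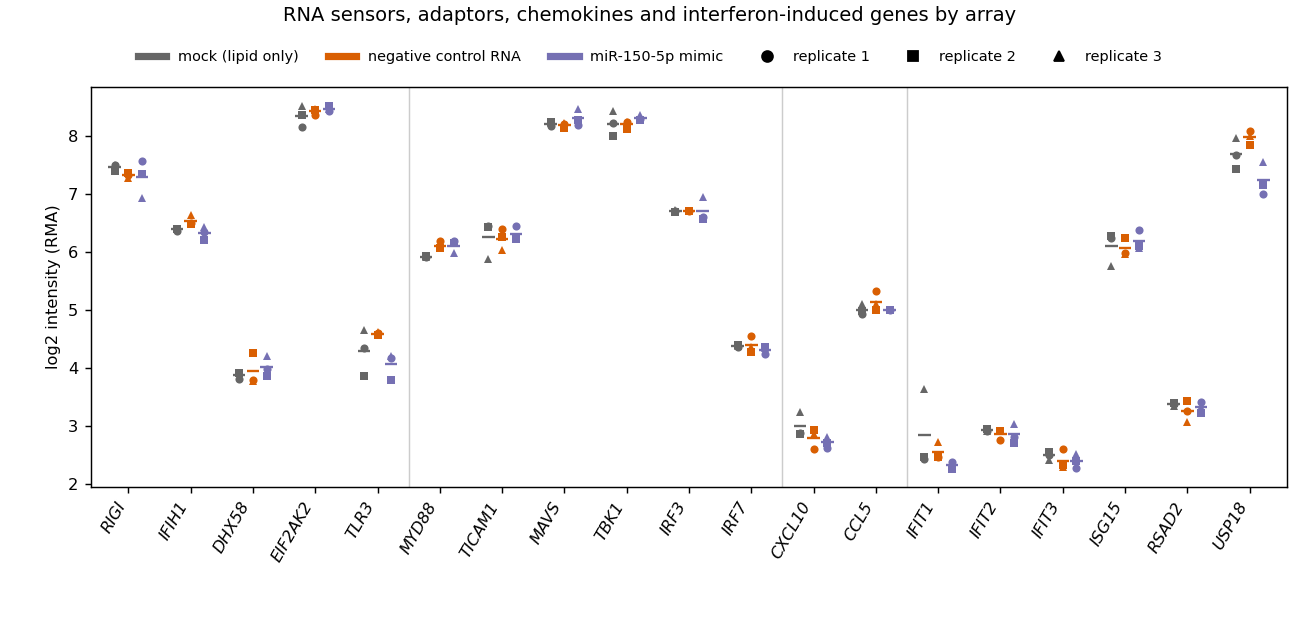
Log2 intensity on each array (points, shape by replicate) and group mean (bars) for RNA sensors, their adaptors, 2 chemokines and interferon-induced genes in mock, negative control and mimic; grey lines part these 4 roles. The mock and negative control points of most genes overlap, IFIT1 has 1 high mock array (replicate 3), and MYD88 and IFIH1 are higher in all negative control arrays.

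Interferon itself could not be read directly. Of 25 interferons and induced chemokines 4 were measured, all of them chemokines and all dimmer than the median gene. CXCL10, a chemokine induced by interferon, read 2.88, 2.86 and 3.23 in mock and 2.60, 2.92 and 2.86 in negative control. CCL5 read 4.92, 4.98 and 5.10 in mock and 5.32, 4.99 and 5.09 in negative control, with negative control replicate 1 the highest of the 6. CXCL11 differed by -0.15 ± 0.09 SE. Each of these 3 overlapped between the groups.

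Interferon-induced effectors are the usual readout of the pathway, and none of them passed. Of 54 listed genes 37 were measured (MX1, OAS1 and IFI6 were not) and 14 had a positive difference (37.8%), with a median of -0.02. The mean over the list, relative to mock, was 0.00, 0.00 and 0.00 on the mock arrays and -0.01, 0.01 and 0.01 on the negative control arrays. IFIT1, which binds foreign RNA lacking a host cap, read 2.43, 2.47 and 3.64 in mock and 2.47, 2.47 and 2.72 in negative control. Its highest array was mock replicate 3, and without that array the difference was 0.11 instead of -0.29. IFIT2 read 2.91, 2.94 and 2.91 in mock and 2.75, 2.91 and 2.91 in negative control, and IFIT3 read 2.49, 2.55 and 2.42 in mock and 2.59, 2.31 and 2.29 in negative control. ISG15, a ubiquitin-like modifier, read 6.24, 6.28 and 5.75 in mock and 5.99, 6.24 and 5.96 in negative control. RSAD2 (viperin) differed by -0.12 ± 0.10 SE. USP18, the protease that removes ISG15, read 7.67, 7.43 and 7.96 in mock, 8.08, 7.84 and 8.0 in negative control and 7.0, 7.16 and 7.55 in mimic. Its mock and negative control arrays overlap.

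Beside these, 2 of the 37 effectors had an unadjusted p under 0.05, both higher with the negative control (5.41%, beside 2.14% of all genes). NMI, an interferon-induced partner of MYC and STAT proteins, read 4.34, 4.34 and 4.23 in mock, 4.77, 4.65 and 4.53 in negative control and 4.33, 4.43 and 4.49 in mimic (negative control minus mock 0.34 ± 0.08 SE, unadjusted p = 0.0021). TRIM5, a restriction factor of retroviruses, read 4.51, 4.63 and 4.67 in mock, 4.98, 4.85 and 4.88 in negative control and 4.67, 4.48 and 4.61 in mimic (0.30 ± 0.08 SE, unadjusted p = 0.0038). Both were dimmer than the median gene, and the mimic arrays of both overlap with mock. Non-overlapping values were found for 4 higher (10.8% of 37) and 1 lower effector, beside 4.77% and 3.33% of all genes. The interval lay within 1.5-fold for 34 of 37, the others being IFIT1, USP18 and, named after its values were seen, IFITM2. Only 12 of the 37 were brighter than the median gene, and IFIT1, IFIT2, IFIT3 and RSAD2 were not among them. For the dimmer genes a value cannot be separated from background, so a narrow interval there does not bound a change.

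The promoters of 2 of these genes are shown because they carry a match to the element through which interferon acts. The searched form of the interferon-stimulated response element was GAAA, then any 2 bases, then GAAA, on both strands, in the 300 bases from 250 before to 50 after the RefSeq start (GRCh38.p14). It occurred in 20 of 29 promoters of measured effectors found in that table (69.0%), in 3.65% of all 27305 promoters of that length and in 2.94% of those of the genes measured here. The IFIT1 promoter (chr10:89392373-89392672, plus strand) has 2 matches, both on the minus strand, starting at -116 and -103 from the start. The ISG15 promoter (chr1:1013247-1013546, plus strand) has 2 overlapping matches on the plus strand at -113 and -107. Capitals mark the matches, 5′ to 3′.
IFIT1: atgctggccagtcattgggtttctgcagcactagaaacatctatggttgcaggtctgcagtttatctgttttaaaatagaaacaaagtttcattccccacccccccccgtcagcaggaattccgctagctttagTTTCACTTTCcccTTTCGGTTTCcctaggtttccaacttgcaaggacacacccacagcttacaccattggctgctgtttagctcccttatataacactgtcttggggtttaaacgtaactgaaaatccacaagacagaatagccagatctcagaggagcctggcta
ISG15: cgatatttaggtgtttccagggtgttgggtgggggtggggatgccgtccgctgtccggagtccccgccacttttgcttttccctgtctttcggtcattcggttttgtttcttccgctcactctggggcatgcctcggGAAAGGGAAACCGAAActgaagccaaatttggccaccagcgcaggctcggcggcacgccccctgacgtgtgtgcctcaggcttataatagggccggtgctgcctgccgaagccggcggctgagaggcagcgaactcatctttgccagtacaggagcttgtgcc
These matches are a description of the sequence; the values of both genes are those given above.

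The inflammatory and stress programs that transfection can start gave no passing gene. Of 24 NF-kB response genes 12 were measured, 4 of them brighter than the median gene. Of the 12, 7 were positive, with a median of 0.03 and every interval within 1.5-fold. Without mock replicate 3 the median was -0.04 with 5 positive. CXCL8 (interleukin 8) read 2.56, 2.56 and 2.76 in mock and 2.56, 2.39 and 2.56 in negative control. CCL2 differed by 0.08 ± 0.15 SE, TNF by 0.12 ± 0.07 SE and TRAF1, an adaptor of TNF receptors, by -0.25 ± 0.09 SE. TRAF1 was lower in all negative control arrays and had an unadjusted p of 0.018.

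PKR and its relatives converge on the integrated stress response, in which the factor ATF4 induces amino acid and stress genes. Of 25 listed genes 16 were measured, 12 with a positive difference (median 0.04), and none had an unadjusted p under 0.05. ATF4 read 8.06, 8.21 and 8.06 in mock and 8.05, 8.02 and 8.06 in negative control. ATF3 differed by 0.04 ± 0.12 SE, DDIT3 (CHOP) by 0.11 ± 0.12 SE and TRIB3 by 0.02 ± 0.10 SE. ASNS, asparagine synthetase, read 6.59, 6.44 and 6.47 in mock and 6.44, 7.06 and 6.46 in negative control, so that 1 negative control array makes its difference of 0.15. CTH, an enzyme of cysteine synthesis, was higher in all negative control arrays (4.31, 4.36 and 4.52 against 4.77, 4.78 and 4.91), by 0.43 ± 0.26 SE, and its mimic arrays were spread more widely (2.91, 3.90 and 4.19). PSAT1 of serine synthesis differed by 0.18 ± 0.10 SE.

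In the unfolded protein response 11 of 22 genes were measured and 5 were positive. SEL1L, a subunit of the complex that moves misfolded proteins out of the endoplasmic reticulum, read 9.92, 9.85 and 9.57 in mock, 9.56, 9.38 and 9.35 in negative control and 9.75, 9.95 and 9.84 in mimic. Every negative control array was lower than every other array, with a difference of -0.35 ± 0.11 SE from mock (unadjusted p = 0.0081). XBP1 was lower by a small amount without overlap (-0.07 ± 0.08 SE) and CRELD2 differed by -0.14 ± 0.10 SE with overlap. The heat shock genes, 13 of 20 measured, had no member with an unadjusted p under 0.05 or with non-overlapping arrays. HSPA1A, the inducible HSP70, read 10.89, 10.96 and 10.83 in mock and 10.99, 10.96 and 10.92 in negative control, and HSPB1 read 12.44, 12.51 and 12.43 in mock and 12.58, 12.46 and 12.47 in negative control. HSF1, their activator, differed by 0.08 ± 0.12 SE, HSPA4L by 0.23 ± 0.12 SE and HSPA4 by -0.06 ± 0.07 SE.

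Of 24 oxidative stress genes 16 were measured and 13 were positive (81.2%), with a median of 0.07 and none with an unadjusted p under 0.05. HMOX1, heme oxygenase, read 6.26, 6.08 and 6.35 in mock and 6.46, 6.45 and 6.35 in negative control. MT2A, a metallothionein, read 7.89, 7.75 and 8.32 in mock and 8.04, 8.54 and 8.34 in negative control, with mock replicate 3 again near the negative control arrays. NFE2L2, which drives this program, differed by 0.11 ± 0.09 SE and TXNRD1 by 0.10 ± 0.08 SE. Immediate early genes respond within minutes, and at 48 h 19 of 24 were measured with a median of 0.04 (-0.0050 without negative control replicate 1). EGR1 was higher in all negative control arrays (6.41, 6.15 and 6.43 against 6.87, 6.46 and 6.68), while FOS read 5.21, 5.15 and 4.77 in mock and 5.46, 5.09 and 4.70 in negative control. JUN differed by 0.08 ± 0.14 SE, MYC by -0.03 ± 0.09 SE, DUSP1 by 0.08 ± 0.08 SE, KLF6 by 0.16 ± 0.09 SE and CCN2 by 0.29 ± 0.13 SE.

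Damage and death genes were likewise without a passing member. Of 26 p53 targets 14 were measured and 10 were positive (median 0.05). GDF15, a secreted stress cytokine, read 7.46, 7.63 and 7.24 in mock, 7.22, 6.95 and 7.22 in negative control and 8.11, 7.86 and 7.81 in mimic. Negative control arrays were lowest and mimic arrays highest, and the difference from mock was -0.31 ± 0.13 SE (unadjusted p = 0.032). CCNG1 differed by 0.26 ± 0.12 SE and BBC3 (PUMA) by 0.05 ± 0.09 SE. Of 32 apoptosis regulators 20 were measured and 12 were positive (median 0.03). The killer protein BMF read 5.52, 5.51 and 5.68 in mock and 5.89, 5.78 and 5.72 in negative control without overlap (unadjusted p = 0.036). The survival genes MCL1 and BCL2 differed by -0.15 ± 0.10 SE and -0.03 ± 0.07 SE, and CFLAR, an inhibitor of caspase 8, by 0.17 ± 0.09 SE.

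**Figure D3:**
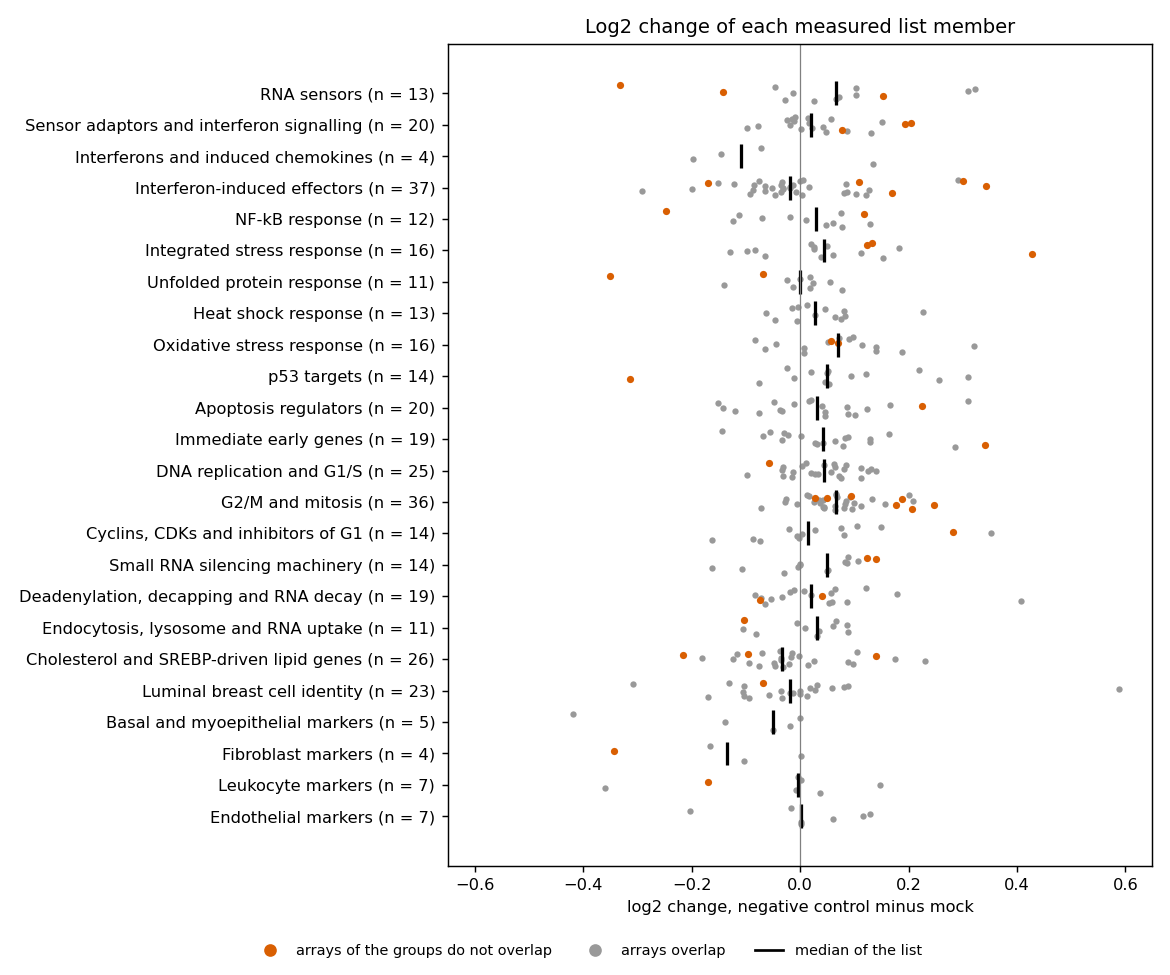
Log2 change (negative control minus mock) of each measured member of 24 gene lists, in orange where the arrays of the 2 groups do not overlap, with the median of each list as a black bar. The medians lie between -0.13 and 0.07; the G2/M and mitosis list has 32 of 36 points above 0.

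Most genes of mitosis had a small positive difference, and none passed. Of 44 listed genes 36 were measured, all brighter than the median gene, and 32 had a positive difference (88.9%), beside 52.8% of all genes and 62.6% of the brighter ones. The median was 0.07, beside 0.03 for the brighter genes. Unadjusted p was under 0.05 for 4 members, all higher (11.1%, against 2.14% of all genes and 2.27% of the brighter ones), and 7 were higher without overlap (19.4%, against 4.77% and 6.79%). Earlier results of these arrays were known when the list was drawn up. BIRC5 (survivin), a subunit of the chromosomal passenger complex, read 7.59, 7.51 and 7.51 in mock, 7.73, 7.78 and 7.72 in negative control and 7.59, 7.76 and 7.63 in mimic. CDC25C, a phosphatase that activates CDK1, read 6.62, 6.48 and 6.63 in mock, 6.90, 6.83 and 6.74 in negative control and 6.23, 6.52 and 6.40 in mimic. The negative control arrays of both genes were higher than every mock array, by 0.21 ± 0.07 SE and 0.25 ± 0.09 SE.

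The other 2 members with an unadjusted p under 0.05 are named after their values were seen. CDC25B, another CDK1 phosphatase, read 8.79, 8.80 and 8.89 in mock and 9.03, 9.04 and 8.94 in negative control. KIF2C, a microtubule-depolymerising kinesin, read 8.32, 8.31 and 8.38 in mock and 8.60, 8.45 and 8.53 in negative control. Of the central kinases and cyclin, PLK1 read 10.52, 10.43 and 10.52 in mock and 10.57, 10.60 and 10.58 in negative control, CDK1 read 8.16, 8.10 and 8.34 in mock and 8.24, 8.30 and 8.32 in negative control, and CCNB1 (cyclin B1) read 8.31, 8.27 and 8.51 in mock and 8.22, 8.51 and 8.50 in negative control. AURKA differed by 0.06 ± 0.08 SE, MKI67 by 0.05 ± 0.07 SE and TOP2A by 0.01 ± 0.07 SE. In bulk RNA a larger share of cells in mitosis and more transcript per cell cannot be told apart.

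The mock array that stood apart moved with this list. The mean over the 36 genes, relative to the mean of mock, was -0.01, -0.06 and 0.07 on the mock arrays, 0.04, 0.09 and 0.10 on the negative control arrays and -0.12, 0.07 and 0.10 on the mimic arrays. Mock replicate 3 lies between the negative control arrays, above 1 of them. Without mock replicate 3 the median was 0.11 and 33 members were positive; over the omission of each array in turn the median ran from 0.04 to 0.11 and the number of positive members from 26 to 33. The lowest median came without mock replicate 2. Members with an unadjusted p under 0.05 numbered 6 without mock replicate 3, 1 without mock replicate 2 or negative control replicate 1, and 2 without mock replicate 1 or negative control replicate 2. Under quantile normalization the median was 0.04.

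**Figure D4:**
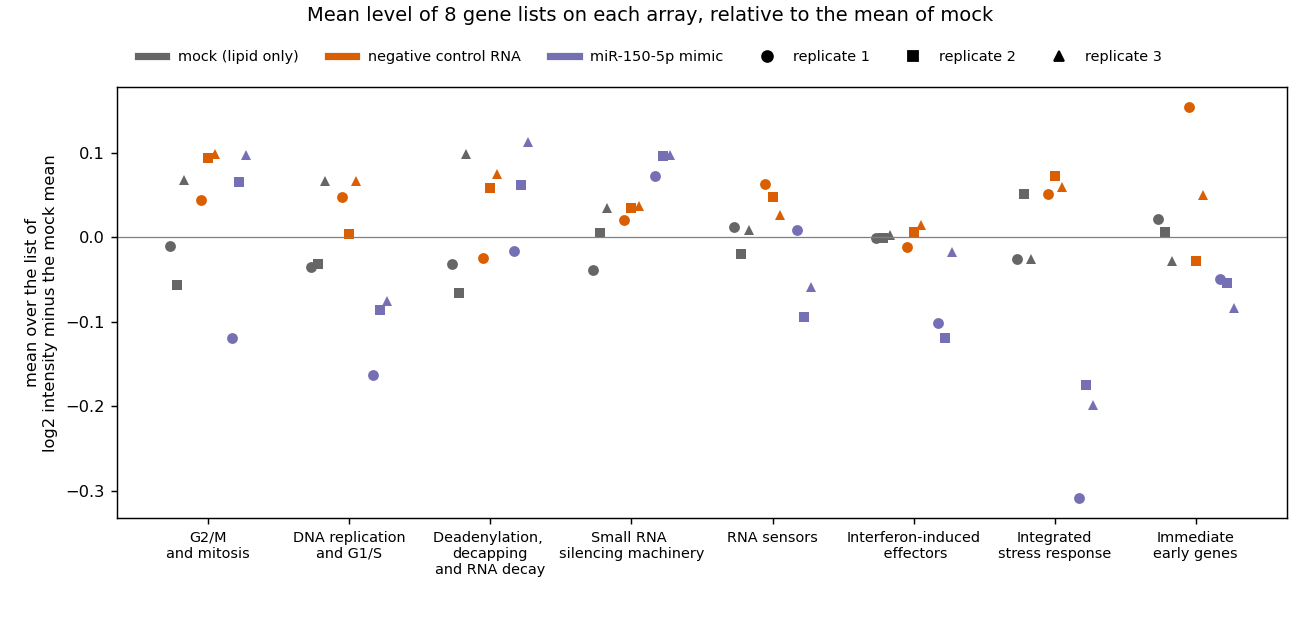
Mean log2 intensity of 8 gene lists on each array, relative to the mean of the 3 mock arrays (points, shape by replicate, colour by group). For mitosis genes mock replicate 3 (0.07) lies between the negative control arrays (0.04 to 0.10), and for RNA sensors the mock arrays lie between -0.02 and 0.01 and the negative control arrays between 0.03 and 0.06.

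Promoters of 2 mitosis genes are shown because they carry a match to the cell cycle homology region, and whether it acts in these cells was not tested. The searched core of the cell cycle homology region was TTTGAA, on both strands of the same 300-base windows. It occurred in 18 of 31 promoters of measured mitosis genes found in the table (58.1%), in 15.4% of all promoters, in 11.8% of those of the genes measured here and in 3 of the 29 effector promoters (10.3%). The interferon element occurred in 0 of the 31. In PLK1 (chr16:23678639-23678938, plus strand) and in CCNB2 (chr15:59104896-59105195, plus strand) the match, in capitals, starts at -29 on the plus strand.
PLK1: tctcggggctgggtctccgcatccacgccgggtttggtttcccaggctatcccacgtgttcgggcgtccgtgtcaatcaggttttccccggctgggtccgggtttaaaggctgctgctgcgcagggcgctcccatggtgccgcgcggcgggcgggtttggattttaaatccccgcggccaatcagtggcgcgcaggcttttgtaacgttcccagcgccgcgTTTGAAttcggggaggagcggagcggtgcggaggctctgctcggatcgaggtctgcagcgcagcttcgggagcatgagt
CCNB2: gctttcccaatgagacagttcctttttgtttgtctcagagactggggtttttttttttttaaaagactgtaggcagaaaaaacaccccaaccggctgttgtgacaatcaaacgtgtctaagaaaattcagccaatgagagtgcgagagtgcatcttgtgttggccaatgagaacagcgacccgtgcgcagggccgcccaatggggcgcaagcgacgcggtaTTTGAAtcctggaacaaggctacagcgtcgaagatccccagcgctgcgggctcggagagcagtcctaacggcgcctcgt
CCNB2 encodes cyclin B2 and is named after its values were seen; it read 8.05, 7.98 and 8.35 in mock and 8.10, 8.22 and 8.26 in negative control.

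Replication and G1 genes gave no passing member. Of 38 DNA replication and G1/S genes 25 were measured and 18 were positive (median 0.04), none with an unadjusted p under 0.05 or higher without overlap. PCNA, the sliding clamp, read 8.58, 8.69 and 8.93 in mock and 8.67, 8.79 and 8.76 in negative control, and MCM2 of the replicative helicase read 8.19, 8.34 and 8.32 in mock and 8.25, 8.25 and 8.25 in negative control. E2F1 differed by -0.10 ± 0.13 SE, CCNE2 by 0.08 ± 0.12 SE, MCM3 by 0.13 ± 0.08 SE, MCM5 by 0.11 ± 0.07 SE and TYMS by -0.06 ± 0.07 SE. Without mock replicate 3 the median of the list was 0.09. Of 22 G1 cyclins, kinases and inhibitors 14 were measured and 8 were positive (median 0.01, and -0.0034 without negative control replicate 3). CDK6 read 5.88, 5.71 and 6.16 in mock and 6.47, 6.29 and 6.06 in negative control, with an unadjusted p of 0.045 and overlapping arrays. CDK4 differed by 0.00 ± 0.07 SE, CCND1 (cyclin D1) by -0.07 ± 0.09 SE, RB1 by -0.02 ± 0.07 SE and CDKN2A by 0.28 ± 0.13 SE. The 50 replication-dependent histones had no named probeset and are not analysed here.

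A short duplex is loaded into Argonaute, which recruits TNRC6 proteins and the deadenylation and decapping enzymes. Of 29 silencing genes 14 were measured; the Argonautes, DROSHA and DICER1 were not among them. The median was 0.05, 9 were positive, none had an unadjusted p under 0.05 and all intervals lay within 1.5-fold. TNRC6C read 7.34, 7.38 and 7.45 in mock, 7.52, 7.54 and 7.53 in negative control and 7.80, 7.60 and 7.75 in mimic, so that mock was lowest throughout. XPO5, which exports microRNA precursors from the nucleus, read 8.11, 8.10 and 8.17 in mock and 8.26, 8.20 and 8.29 in negative control, without overlap. TNRC6A differed by 0.08 ± 0.06 SE and TNRC6B by 0.11 ± 0.09 SE. DGCR8, the partner of DROSHA, differed by 0.05 ± 0.08 SE and TARBP2, the partner of DICER1, by 0.09 ± 0.09 SE.

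Of 32 RNA decay genes 19 were measured and 11 were positive (median 0.02, and -0.02 without mock replicate 2). DCP2, the decapping enzyme, had the largest difference of the list, with 8.18, 8.21 and 8.89 in mock, 8.82, 8.74 and 8.95 in negative control and 8.69, 8.54 and 8.55 in mimic. Mock replicate 3 lies among the negative control arrays; the difference was 0.41 ± 0.17 SE with it (unadjusted p = 0.036) and 0.64 without it. PAN2, a deadenylase, read 7.19, 7.28 and 7.51 in mock and 7.46, 7.56 and 7.49 in negative control with the same library high, and XRN1, the exonuclease that follows decapping, differed by 0.07 ± 0.12 SE. The mean of the list relative to mock was -0.03, -0.07 and 0.10 on the mock arrays and -0.02, 0.06 and 0.07 on the negative control arrays. MicroRNA genes, 1072 of those tested, had 463 positive differences and a median of -0.02, and the interval reached beyond 1.5-fold for 286. These are probesets that carry the names of microRNA genes, and levels of mature microRNA were not measured. At an unadjusted p under 0.05, 26 were higher, which is 2.43% of these 1072 beside 2.14% of all genes. On the lower side there were 42 of the 1072, a larger share than the 2.04% of all genes. Only 196 of the 1072 were brighter than the median gene. Of these 5 were higher (2.55%, beside 2.27% of all brighter genes) and 10 lower, beside 78 of the 7442 brighter genes.

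Uptake and membrane lipid genes gave no passing member. Of 29 genes of endocytosis, lysosome and RNA uptake 11 were measured, with a median of 0.03 (-0.0019 without negative control replicate 1), none with an unadjusted p under 0.05 and every interval within 1.5-fold. LAMP1, a lysosomal membrane protein, read 9.33, 9.38 and 9.34 in mock and 9.38, 9.33 and 9.36 in negative control. RNASET2, a lysosomal ribonuclease, differed by -0.01 ± 0.09 SE, CTSD (cathepsin D) by -0.08 ± 0.07 SE and SQSTM1 by 0.07 ± 0.07 SE. Of 34 cholesterol and lipid synthesis genes 26 were measured and 8 were positive (30.8%), with a median of -0.03. Without mock replicate 2 the median was 0.0092 with 14 positive. SQLE, squalene epoxidase, was lower in all negative control arrays by a small amount (8.46, 8.45 and 8.46 against 8.34, 8.37 and 8.39). SCAP, the sterol sensor that escorts SREBP, read 7.54, 7.28 and 7.15 in mock and 7.08, 7.15 and 7.09 in negative control (unadjusted p = 0.049), and PMVK read 7.56, 7.57 and 7.64 in mock and 7.77, 7.72 and 7.69 in negative control (unadjusted p = 0.049). FASN differed by -0.09 ± 0.12 SE, SCD by -0.12 ± 0.07 SE, INSIG1 by -0.12 ± 0.09 SE, SREBF1 by -0.07 ± 0.11 SE and SREBF2 by -0.02 ± 0.07 SE.

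Cell identity was compared through 27 luminal markers, of which 23 were measured and 8 were positive (median -0.02). ESR1, the estrogen receptor, read 8.52, 8.55 and 8.63 in mock and 8.50, 8.52 and 8.64 in negative control. TFF1, an estrogen-induced secreted peptide, read 11.21, 11.32 and 10.87 in mock and 10.65, 10.95 and 10.88 in negative control, with mock replicate 3 inside the negative control range and a difference of -0.31 ± 0.14 SE. FOXA1 differed by -0.02 ± 0.08 SE, GATA3 by -0.11 ± 0.11 SE, KRT8 by 0.02 ± 0.06 SE, KRT18 by -0.03 ± 0.07 SE and KRT19 by 0.03 ± 0.07 SE. KRT7 had the widest difference (0.59 ± 0.22 SE, and 0.34 without mock replicate 2), with 4.83, 3.91 and 4.51 in mock and 5.31, 5.01 and 4.70 in negative control. Markers of other cells, which a cell line should lack, were measured for 5 of 14 basal, 4 of 12 fibroblast, 7 of 14 leukocyte and 7 of 9 endothelial genes. The mean log2 level over the basal list ranged from 5.07 to 5.27 on the mock arrays and from 4.99 to 5.12 on the negative control arrays. For fibroblast markers these ranges were 3.68 to 3.88 and 3.52 to 3.71, for leukocyte markers 4.59 to 4.71 and 4.55 to 4.63, and for endothelial markers 4.14 to 4.24 and 4.12 to 4.25. None of the 4 lists had a member that passed, and their part in other differences was not tested. The defining basal keratins KRT5 and KRT14 were below the median gene on every array. Of the 5 measured basal markers, 3 were brighter than it, OXTR and KRT15 among them, as were 2 of the 7 leukocyte markers. The defining markers TP63, COL1A1, COL1A2, PDGFRB, PTPRC, CD3E and CDH5 were not measured. KRT14 differed by -0.02 ± 0.11 SE and KRT15 by -0.14 ± 0.16 SE. Among these markers OXTR (6.82, 6.90 and 6.24 in mock, 6.28, 6.12 and 6.30 in negative control), LUM (-0.34 ± 0.14 SE), CSF1R (-0.17 ± 0.08 SE) and CD68 (-0.36 ± 0.23 SE) were lower on average, and PECAM1 and VWF differed by 0.13 ± 0.17 SE and -0.02 ± 0.06 SE. DCN differed by -0.10 ± 0.08 SE, CD8A by 0.15 ± 0.09 SE, TIE1 by -0.20 ± 0.14 SE and KDR by 0.12 ± 0.13 SE. LUM and CSF1R were lower in all negative control arrays, and the arrays of the other named basal, fibroblast, leukocyte and endothelial markers overlapped.

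The genes of lowest p were named by a rule that asks for a protein-coding gene, non-overlapping arrays and a group mean above the median, 12 in each direction, and none passed. MMD, a membrane protein first described in maturing macrophages, read 6.41, 6.48 and 6.67 in mock, 6.98, 6.94 and 7.01 in negative control and 6.04, 5.88 and 5.86 in mimic. It was higher with the negative control by 0.46 ± 0.09 SE (unadjusted p = 0.00039) and lowest with the mimic. LIMCH1, an activator of nonmuscle myosin, and NCAM2, an adhesion molecule, showed the same order of groups: LIMCH1 read 6.09, 6.07 and 6.17 in mock, 6.46, 6.25 and 6.41 in negative control and 5.64, 5.60 and 5.59 in mimic, and NCAM2 read 6.80, 6.80 and 6.80 in mock, 7.04, 7.21 and 6.98 in negative control and 6.63, 6.59 and 6.56 in mimic. For these 3 genes the choice of mock or negative control as the reference changes the size of the mimic's difference.

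Of the 12 genes on the higher side, 7 were higher with both RNAs. The rule had already placed the negative control arrays of all 12 above the same mock arrays, so this count is not independent of it. Among all genes, 710 were higher in every negative control array and 204 were above mock on all 6 RNA arrays. HOXC13, a homeobox factor, read 5.83, 5.67 and 5.64 in mock, 6.19, 6.08 and 6.26 in negative control and 6.21, 6.12 and 6.34 in mimic. RPAIN, which carries replication protein A into the nucleus, read 5.97, 6.08 and 6.07 in mock, 6.26, 6.35 and 6.32 in negative control and 6.36, 6.40 and 6.34 in mimic, and OSER1 read 7.67, 7.67 and 7.78 in mock, 7.96, 8.06 and 7.95 in negative control and 8.04, 8.01 and 7.93 in mimic. In these 3 genes the RNA arrays lie above every mock array. GFRA1, a receptor of GDNF and an estrogen-induced gene in breast cells, read 7.57, 7.44 and 7.80 in mock, 7.96, 7.92 and 8.06 in negative control and 7.83, 7.90 and 8.04 in mimic, with the same arrangement of arrays. CGN (cingulin, of tight junctions) differed by 0.38 ± 0.09 SE, AFMID by 0.26 ± 0.06 SE and DOP1B by 0.21 ± 0.06 SE between negative control and mock, and their mimic arrays too lie above every mock array. PSORS1C2 (0.29 ± 0.08 SE) and NAALADL2 (0.36 ± 0.10 SE) were higher with the negative control, while their mimic arrays overlap with mock.

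On the lower side TOMM20, the receptor of the mitochondrial import pore, read 7.81, 7.75 and 7.53 in mock, 7.27, 7.38 and 7.12 in negative control and 7.67, 7.88 and 7.82 in mimic. The negative control arrays were lowest and the mimic arrays lay with mock (negative control minus mock -0.44 ± 0.10 SE, unadjusted p = 0.0017). STAG2, a cohesin subunit, and SBNO1 were lowest with the negative control and highest with the mimic, with differences of -0.23 ± 0.07 SE and -0.28 ± 0.09 SE from mock. TMEM65, an inner mitochondrial membrane protein, read 7.80, 7.54 and 7.57 in mock, 7.26, 7.31 and 7.26 in negative control and 7.28, 7.41 and 7.33 in mimic, and CCDC78 read 5.78, 5.68 and 5.72 in mock, 5.04, 5.37 and 5.38 in negative control and 4.99, 5.38 and 5.05 in mimic, so that both RNAs were lower. PYGO2, a Wnt cofactor, differed by -0.32 ± 0.08 SE, ANO10 by -0.30 ± 0.07 SE, GPIHBP1 by -0.37 ± 0.10 SE, CYB5D1 by -0.35 ± 0.10 SE, MOSPD3 by -0.29 ± 0.09 SE and OBP2A by -0.32 ± 0.10 SE. The mimic arrays of ANO10 and GPIHBP1 too lie below every mock array, while those of PYGO2, CYB5D1, MOSPD3 and OBP2A overlap with mock.

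**Figure D5:**
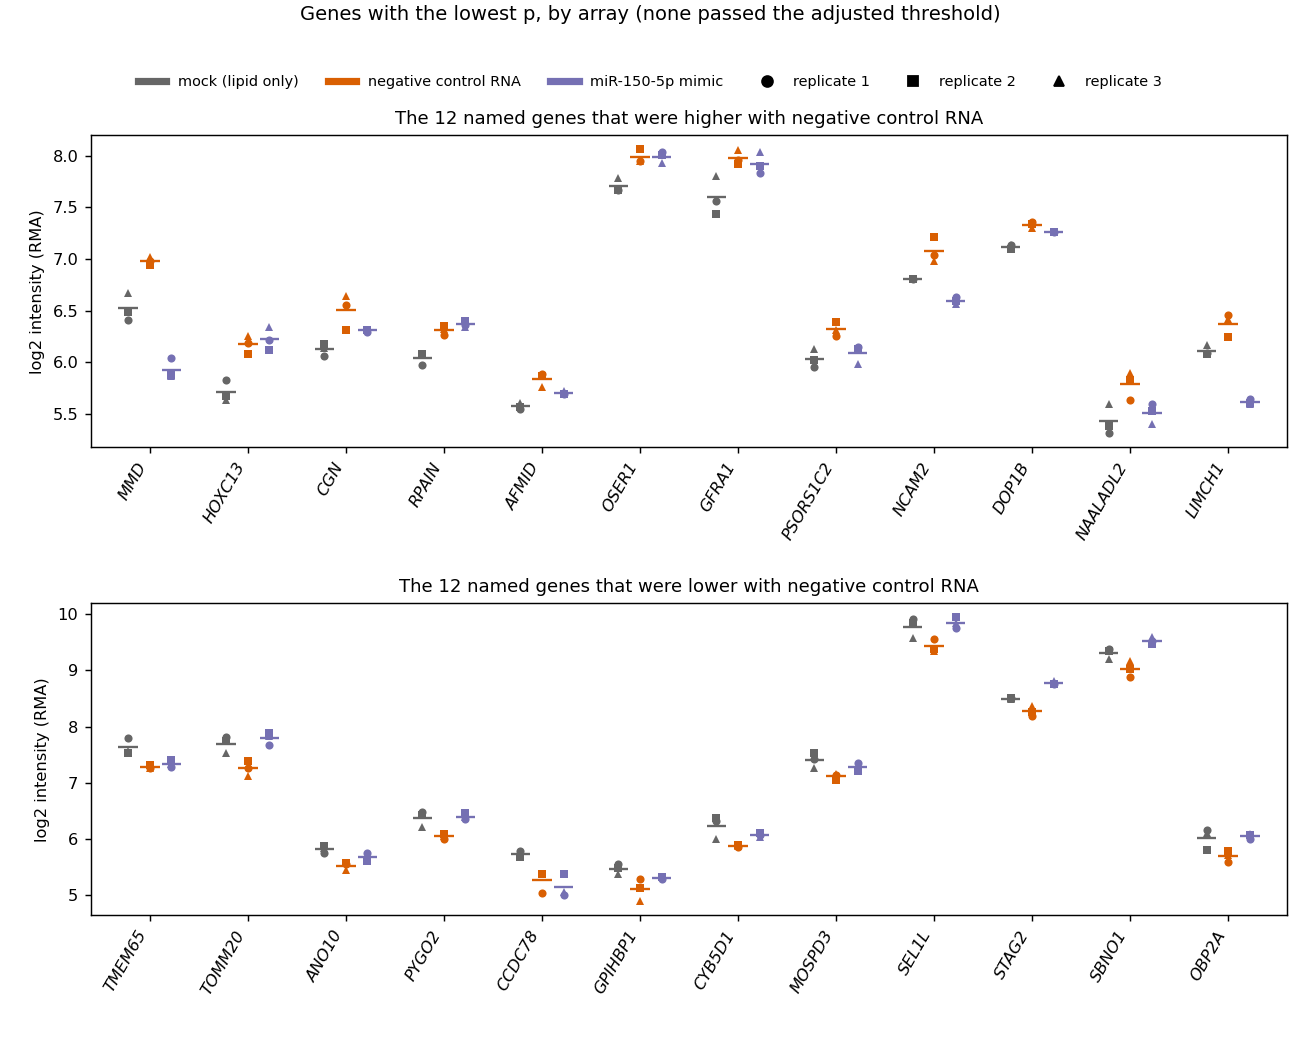
Log2 intensity on each array (points, shape by replicate) and group mean (bars) of the 24 named genes of lowest p, the 12 higher (top) and the 12 lower (bottom) with the negative control. MMD, NCAM2 and LIMCH1 are highest with the negative control and lowest with the mimic, and HOXC13, RPAIN and OSER1 are higher with both RNAs.

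What both RNAs share against lipid alone was tested as the mean of the 2 RNA groups minus mock. Again 0 genes were higher and 0 lower at an adjusted p under 0.05 (0% each, limma), the lowest adjusted p was 0.453, and 857 genes had an unadjusted p under 0.05 (1374 without mock replicate 3). All 6 RNA arrays lay above all mock arrays for 204 genes (1.37%) and below them for 104 (0.699%). Beside HOXC13, RPAIN, TMEM65 and CCDC78 the naming rule gave CALCOCO1, an autophagy receptor, and LRRC58. CALCOCO1 read 6.10, 6.27 and 6.22 in mock, 6.36, 6.38 and 6.36 in negative control and 6.57, 6.62 and 6.65 in mimic. LRRC58 read 8.81, 8.76 and 8.76 in mock, 8.47, 8.52 and 8.58 in negative control and 8.20, 8.47 and 8.49 in mimic. Among the 379 measured genes of all lists, 9 were above mock and 5 below it on all 6 RNA arrays. The comparison of either RNA with mock and that of the negative control with mock share the mock and negative control arrays.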

How the data were processed

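Total RNA of ZR-75-1 cells was hybridised to 9 Affymetrix Human Gene 2.0 ST arrays, 3 per group. The authors deposited log2 values made with RMA, per the submitters' processing notes; no version of it is named in the sources used here. The table holds 53617 probesets, of which 16098 carry 1 gene symbol of the platform annotation (all matched to RefSeq) and 37519 are unnamed here. The probeset with the highest mean over 9 arrays stood for each of 14884 genes. The table has no detection call or background; precision is limited by the 3 arrays a group.

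limma 3.58.1 in R 4.3.3 was fitted with 1 mean per group over 9 arrays (6 residual degrees of freedom), tests were two-sided and p-values were adjusted by Benjamini-Hochberg over all genes, with a threshold of 0.05; ± is limma's moderated SE. An exact permutation test of 3 against 3 cannot go below 0.1. Of the genes tested, 605 had 1 identical value on all 3 arrays of mock or of negative control. The code was tested on simulated data. Genes were named by the rule given in the text and, per list, the always named members and the 2 of lowest p; others are marked as named after their values were seen. The members, lists and rules were chosen with earlier results of these data known.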

Additional observations from a re-analysis of the deposited data

Results flagged for a closer look

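Outside the named genes, 1 probeset without a gene name in the table used here (16651207) differed between RNA and no RNA when all 53617 probesets were tested. It read 1.98, 1.90 and 1.93 in mock, 3.80, 3.47 and 3.86 in negative control and 3.54, 3.79 and 4.08 in mimic. The mean of both RNA groups was higher than mock by 1.82 ± 0.13 SE on the log2 scale, with all 6 RNA arrays above all 3 mock arrays (adjusted p = 0.0157, limma over all probesets). For the negative control alone the difference was 1.77 and the adjusted p 0.0632. In mock 0.442% of all probesets were dimmer than it, in negative control 40.9% and in mimic 42.0%, so its level stays below the middle of the table in every group. A value as low as that of mock cannot be separated from background, and no fold is given. What it measures was not tested.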

How the results depend on the processing

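For the negative control against mock 0 genes passed under each of the 19 alternatives run, 9 of which leave out 1 array. The number with an unadjusted p under 0.05 was 301 among genes above the median intensity, 1347 with array weights and from 446 to 1267 without 1 array. For either RNA against mock these numbers were 549, 1542 and from 667 to 1374, and 1 probeset passed when all probesets were tested. The labels do not say whether equal replicate numbers mark shared experiments. After removal of group means, same-number arrays of mock and negative control correlated at 0.057, 0.00073 and 0.133. Those of mock and mimic gave 0.045, -0.061 and 0.095, and those of negative control and mimic 0.106, 0.027 and 0.059. Different-number arrays of mock and negative control ran from -0.117 to 0.080. A replicate block gave 0 passing genes for both comparisons, with 687 and 917 at an unadjusted p under 0.05. Of the 149 genes given by the naming rule none passed under any alternative (lowest adjusted p 0.192) and 111 kept their sign under all; STRADB, outside that rule, reached 0.139 without mock replicate 3. The median of 12 of 25 lists, all genes counted as a list, moved by more than the replicate spread under at least 1 alternative. Under quantile normalization the difference of negative control and mock changed sign for CDK4 to -0.0044, IRF3 to -0.029, KRT8 to -0.013, PCNA to -0.027, RNASET2 to 0.013, TOP2A to -0.0049, TRIB3 to -0.022 and VWF to 0.00048. With array weights the difference of negative control and mock changed sign for ESR1 to 0.014, FOS to -0.091, IRF7 to -0.0031, JUN to -0.037, RB1 to 0.016, RNASET2 to 0.013 and TBK1 to 0.012. With arrays centred on their median the difference of negative control and mock changed sign for IRF3 to -0.00047. When each array was left out in turn, the difference ranged across 0 for ASNS from -0.049 to 0.26, ATF3 from -0.011 to 0.076, BBC3 from -0.068 to 0.11, CCL2 from -0.019 to 0.15, CCNB1 from -0.0039 to 0.14, CDK4 from -0.028 to 0.052, DDIT3 from -0.012 to 0.24 and DGCR8 from -0.0025 to 0.077. It did so for DHX58 from -0.093 to 0.15, EIF2AK2 from -0.024 to 0.16, ESR1 from -0.058 to 0.021, FASN from -0.20 to 0.035, FOS from -0.15 to 0.23, FOXA1 from -0.076 to 0.019, GATA3 from -0.19 to 0.0018 and IFIT1 from -0.50 to 0.11. The same held for IRF3 from -0.0086 to 0.011, IRF7 from -0.055 to 0.081, ISG15 from -0.20 to 0.063, JUN from -0.047 to 0.22, KRT14 from -0.11 to 0.10, KRT19 from -0.0079 to 0.060, KRT8 from -0.010 to 0.039 and LAMP1 from -0.0049 to 0.023. Further such ranges were those of MAVS from -0.038 to 0.0064, MYC from -0.084 to 0.030, PCNA from -0.073 to 0.10, RB1 from -0.051 to 0.032, RNASET2 from -0.073 to 0.066, SREBF1 from -0.16 to 0.043, SREBF2 from -0.067 to 0.015 and TARBP2 from -0.0014 to 0.14. The last were those of TBK1 from -0.12 to 0.093, TICAM1 from -0.21 to 0.073, TOP2A from -0.018 to 0.053, TRIB3 from -0.029 to 0.064, VWF from -0.044 to 0.014 and XRN1 from -0.032 to 0.21. The cause was not tested. Dim genes and genes listed at 1 value on a group's arrays limit what the interferon and chemokine lists can show.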
